A study of Rattus norvegicus with 5 samples.

Results

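Antiviral effector genes of the type I interferon response were examined in mononuclear leukocytes from the blood vessels of transplanted rat kidneys. The 10 genes were Rsad2, Mx1, Mx2, Oas1a, Ifit1, Ifit2, Isg15, Usp18, Bst2 and Parp9, out of 14871 genes with a probe of their own on the array. They were chosen by gene symbol in the probe annotation. The measured values behind that choice were the ratios of probes sharing an accession number, whose correlation fixed which row of the deposited table belongs to which probe. Earlier results of the same allograft against isograft contrast were also known when the genes were picked. Their ratios are therefore a description, and the adjusted p-values below only set each ratio against a moderated spread between arrays.

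Allografts were kidneys of F344 rats placed in LEW recipients, a pairing with a minor mismatch at an MHC class I locus, and isografts were kidneys transplanted between LEW rats. All animals were males, transplanted at 270 to 300 g, and the sources used here give neither their age nor the time since surgery. In both groups animals were anaesthetised with pentobarbital (60 mg/kg), donors received heparin (1000 IU/kg), and recipients lacked kidneys of their own, received 30 µg of ampicillin and were not immunosuppressed. Ischemia stayed under 30 min, and recipients that died within 4 days, under 20%, had been left out. Cells flushed out of the graft vessels were spun on Percoll, by density, to remove most granulocytes and red cells. Each of 5 arrays set an allograft sample against an isograft sample in separate dyes, with the allograft in Cy5 on replicates 1, 3 and 5 and in Cy3 on replicates 2 and 4. Whether RNA of several animals was pooled is not stated, so p-values measure only the spread between these arrays. The fit used below (limma) moderates that spread, so each gene's SE and p-value also draw on the spread of all features tested.

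Type I interferons are made when cells sense foreign or misplaced nucleic acid. They act through the receptor chains Ifnar1 and Ifnar2, the kinases Jak1 and Tyk2 and a complex with Stat2 and Irf9, which binds the interferon-stimulated response element (ISRE) before many effector genes. Interferon gamma, made by T and NK cells, acts mainly through gamma-activated sites (GAS) and through Irf1, and many genes answer to both kinds of interferon. In a rejected kidney both kinds can be present, and monocytes and lymphocytes in its vessels can respond to either.

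The deposited values are a log ratio per spot, taken here as log2 of allograft over isograft. Fold sizes hold for base 2. The direction is likely, since the sample titles put the allograft first, but no source used here states it or the log base. Probe names rest on a recovered row order: over pairs of probes of a shared accession, the mean ratio correlated at 0.582 in that order (4730 pairs) and at -0.00161 with the rows as given (4288 pairs). Left out of the check, the members' own accessions changed the recovered value to 0.580. On single arrays the correlation in the recovered order was 0.325, 0.322, 0.609, 0.179 and 0.241 for replicates 1 to 5. Probes of a shared accession thus agreed least on replicates 4 and 5. The arrays held between 41033 and 43286 values for 44290 spots, with medians from -0.012 to 0.028 and SDs from 0.506 to 0.847. Only ratios were used here, so no gene's absolute level, and no marker's presence or absence, can be given. A ratio of RNA pools also cannot tell fewer cells of a type from less RNA per cell.

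The effectors did not move as a block. Fitted ratios ran from 1.37 for Bst2 to -1.14 for Rsad2, with a median over the 10 genes of 0.43, against a median of -0.0058 over the 14329 named genes tested. Parp9 rose and Rsad2 fell in allograft leukocytes, and the other 8 did not pass an adjusted p of 0.05 (limma, Benjamini-Hochberg over 33646 genes and unnamed probes). Over all of these features 1.35% were called, 0.761% higher and 0.591% lower, and over named genes alone 1.78% were called. On all 5 arrays Bst2, Isg15, Parp9 and Ifit2 lay above 0, and Rsad2 and Oas1a lay below 0, whereas Mx1, Mx2, Ifit1 and Usp18 took both signs. For Rsad2 the call and the sign hold for the average of 4 probes. Without the lowest probe its adjusted p was 0.268 in limma, and on replicate 4 its expressed sequence tag probes read 0.31 and 0.35. Of 13314 named genes measured on every array, 1462 lay above 0 on all of them and 1306 (9.81%) below. The members' median was 0.38, 0.13, 0.59, 0.58 and 0.76 on replicates 1 to 5, so it was positive on each array and lowest on replicate 2.

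**Figure D1:**
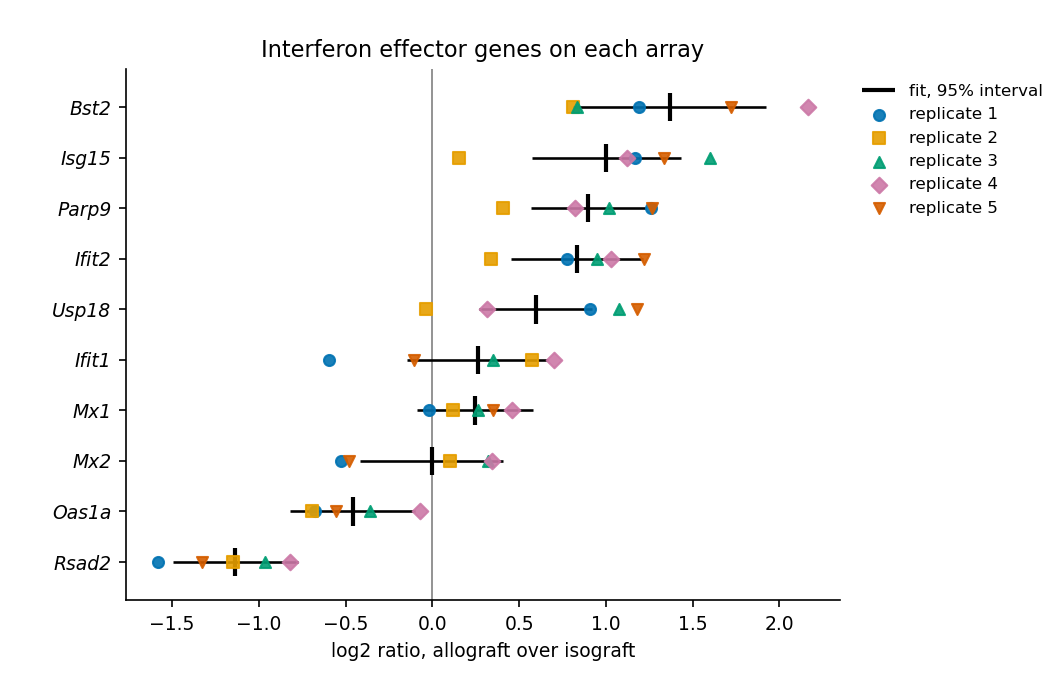
Log2 ratio of allograft over isograft (horizontal axis) for the 10 effector genes on each of 5 arrays (points), with the fitted ratio (tick) and its 95% interval (line). Bst2, Isg15, Parp9 and Ifit2 lie to the right of 0 on every array, and Oas1a and Rsad2 lie to its left. Points are averages over a gene's probes, which for Rsad2 differ widely.

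Ordered by fitted ratio, the members ran Bst2, Isg15, Parp9, Ifit2, Usp18, Ifit1, Mx1, Mx2, Oas1a and Rsad2. For 7 of the 9 neighbouring pairs, the gap was smaller than the SD of the difference over arrays, so their order is not resolved. The gap from Mx2 to Oas1a was 0.45 with an SD of 0.32, and the gap from Oas1a to Rsad2 was 0.68 with an SD of 0.17. In both of these pairs the first gene was above the second on 5 of 5 arrays. The distance of Rsad2 from Oas1a depended on how its 4 probes were combined. Without the lowest probe its ratio was -0.46, level with Oas1a at -0.46. With the median of its probes Rsad2 was at -0.68, below Oas1a at -0.46.

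Promoters are shown because an ISRE is the sequence through which such genes answer to type I interferon. RefSeq windows of the GRCr8 assembly, from 250 bases before to 50 bases after the start, were at hand for 5 members: Rsad2, Mx1, Oas1a, Bst2 and Parp9. The letters GAAANNGAA, a core of the ISRE, were searched on both strands. They stood in the windows of Rsad2, Oas1a and Bst2, and in 9.71% of the 33469 windows of all genes. In the stretches below, written 5′ to 3′ on the gene's strand, capitals mark the match, which in Oas1a and Bst2 is a pair of overlapping matches and in Rsad2 and Gbp2 reads on the opposite strand.
Rsad2 (chr6:48788233-48788291, minus strand): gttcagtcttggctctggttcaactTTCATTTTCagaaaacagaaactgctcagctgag
Oas1a (chr12:41330400-41330464, plus strand): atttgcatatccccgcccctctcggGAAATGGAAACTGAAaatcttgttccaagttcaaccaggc
Bst2 (chr16:18255059-18255123, minus strand): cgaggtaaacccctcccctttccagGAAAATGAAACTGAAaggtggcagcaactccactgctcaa
Gbp2 (chr2:234005672-234005730, plus strand): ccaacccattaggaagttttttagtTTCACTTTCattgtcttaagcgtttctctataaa
Irgm (chr10:33742579-33742637, minus strand): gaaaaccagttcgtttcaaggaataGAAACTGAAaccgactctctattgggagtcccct

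Gbp2 and Irgm, GTPases induced strongly by interferon gamma, are printed for comparison, and 5 of 7 windows of their list held the same letters. Among windows of the other interferon-stimulated genes described below, 20 of 33 did (60.6%). The match nearest to the annotated start began 146 bases upstream in Rsad2, 35 in Oas1a, 125 in Bst2, 30 in Gbp2 and 34 in Irgm. Whether these annotated starts mark where transcription begins was not checked, so the distances may not compare between genes. So the 3 members with a match include Bst2, with the highest ratio of the set, and Oas1a and Rsad2, which lay below 0, the latter at -1.14 with all probes and at -0.46 without its lowest one. The GAS core TTCNNNGAA stood in the windows of Oas1a and Bst2, overlapping the ISRE core in Bst2, and in 8.87% of all windows. Neither motif was found in the windows of Mx1 and Parp9. These matches describe the letters in a window and say nothing of a factor's binding.

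Isg15 is a ubiquitin-like protein that is joined to other proteins during the interferon response and is also secreted. Its ratio was 1.17, 0.15, 1.60, 1.12 and 1.33 on replicates 1 to 5. Every array had more of it in the allograft sample, but replicate 2 lay close to 0. The fitted ratio was 1.00 ± 0.18 (SE, n = 5 arrays), a 2.00-fold difference with an adjusted p of 0.0559 in limma. The arrays with the allograft in Cy5 averaged 1.37 and those with it in Cy3 averaged 0.64.

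Usp18 is the protease that takes Isg15 off its targets, and it also dampens signalling from the type I receptor. It read 0.91, -0.04, 1.08, 0.31 and 1.18, so the 3 arrays with the allograft in Cy5 were near 1 and the others lower. The means of the dye orientations, 1.05 and 0.14, differed the most among the members. The fitted ratio was 0.60 ± 0.14 with an adjusted p of 0.102 in limma, and both of its probes had fitted ratios above 0 (0.50 and 0.69). The lower probe read 0.83, -0.24, 1.34, -0.19 and 1.44, below 0 on replicates 2 and 4. Enzymes that attach Isg15, looked at for their role after the values were seen, were the activating enzyme Uba7 at 0.06 and the conjugating enzyme Ube2l6 at 0.52, the latter on 4 arrays, and neither passed.

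Bst2, also called tetherin, holds budding virus particles at the cell surface. Its ratio was 1.19, 0.81, 0.83, 2.16 and 1.72, the highest fitted ratio of the set at 1.37 ± 0.24 (2.58-fold, 95% interval 0.81 to 1.92 on the log2 scale). On every array it lay between the 97.6th and the 99.7th percentile of named genes. The adjusted p was 0.0505, just above the threshold, and it passed in 6 of 13 alternative settings, with adjusted p-values from 0.0228 to 0.267. Values for its separate probes were 1.33 (adjusted p = 0.0558) and 1.41 (adjusted p = 0.0431, limma on single probes). Without replicate 2 the fit gave 1.70 and an adjusted p of 0.0434, and without any of the other arrays the adjusted p ran from 0.129 to 0.217.

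Parp9, which pairs with the ubiquitin ligase Dtx3l and raises the output of interferon-stimulated genes in human cells, was the member called higher. It read 1.26, 0.41, 1.02, 0.82 and 1.26, above 0 on every array. The fitted ratio was 0.90 ± 0.14 (1.86-fold, adjusted p = 0.0380, limma). Leaving out any single array ended the call, with adjusted p-values from 0.0801 to 0.224 and ratios from 0.79 to 1.00, and so did scaling the arrays to a common spread (adjusted p = 0.0561). Its partner Dtx3l read 0.42, -0.01, 0.41, -0.06 and 0.95, a fitted 0.28 with an adjusted p of 0.489.

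Ifit1 and Ifit2 are repeat proteins that bind viral RNA or translation factors and block the making of viral protein. Ifit2 read 0.78, 0.34, 0.95, 1.03 and 1.22, with a fitted ratio of 0.83 ± 0.16 and an adjusted p of 0.0647 in limma. Its probes gave the same fitted ratio, 0.83 each. Ifit1 read -0.59, 0.58, 0.35, 0.70 and -0.11, a fitted 0.26 ± 0.17 with an adjusted p of 0.581. The relatives therefore parted on replicates 1 and 5, where Ifit2 was above 0 and Ifit1 below it. Their relative Ifit3 read 1.20, -0.15, 0.98, -0.52 and 1.09, high on the arrays with the allograft in Cy5 and below 0 on the others.

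Mx1 and Mx2 are dynamin-like GTPases that block the replication of RNA viruses, and Mx1 is a common readout of type I interferon. Mx1 read -0.02, 0.12, 0.26, 0.46 and 0.35, a small spread around a fitted 0.24 ± 0.14 (adjusted p = 0.528, limma). The 95% interval ran from -0.09 to 0.58. Mx2 read -0.53, 0.10, 0.32, 0.34 and -0.48, with a fitted ratio of -0.0039 ± 0.17. That average hides a disagreement between its probes. The probe of the RefSeq transcript read 0.20, 0.02, 0.52, 0.47 and 0.89, above 0 on every array (fitted 0.39, adjusted p = 0.366), and the probe of an expressed sequence tag read -1.26, 0.18, 0.12, 0.21 and -1.85.

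Oas1a is an oligoadenylate synthetase, which senses double-stranded RNA. It read -0.68, -0.70, -0.36, -0.07 and -0.56, below 0 on every array. The fitted ratio was -0.46 ± 0.15 (1.37-fold lower in the allograft samples), and the adjusted p was 0.243 in limma. Other genes of the family were spread around 0: Oasl2 at 0.42, Oas1b at 0.24, Oas1i at 0.10 and Oasl at -0.18, with none passing. The Oas1 genes of rodents are close copies, so their probes may share hybridisation.

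**Figure D2:**
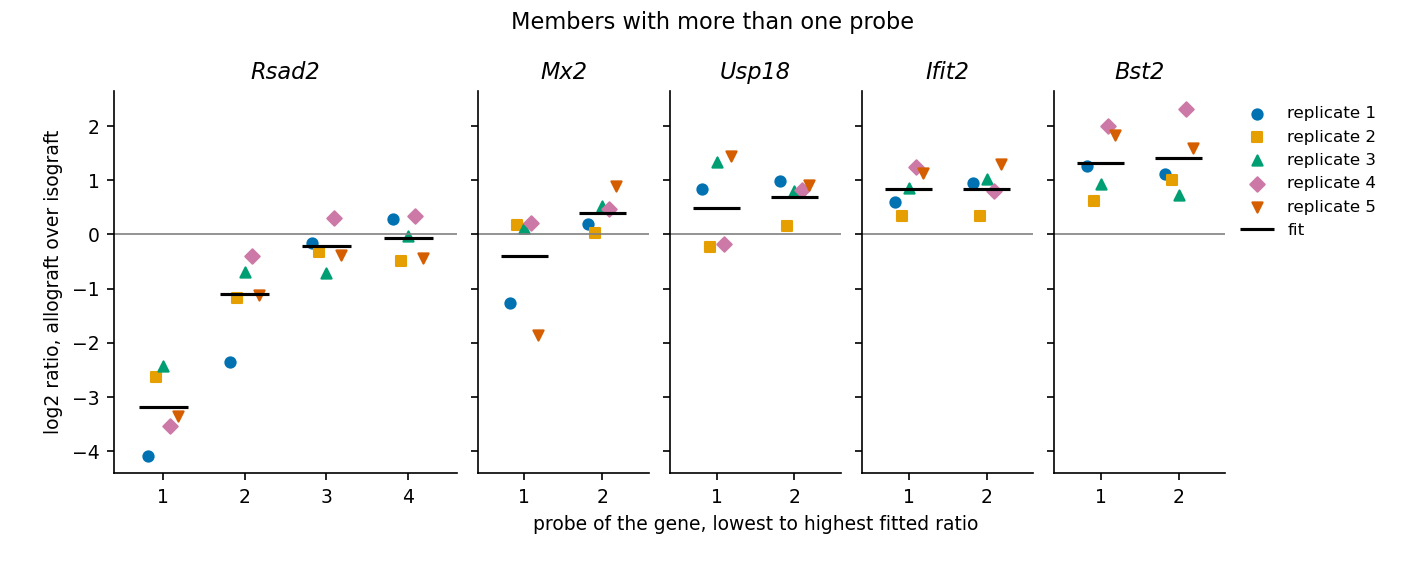
Log2 ratio of allograft over isograft (vertical axis) for each probe of the 5 members with more than 1 probe, with arrays as points and the fitted ratio as a bar. Probes of Ifit2 and Bst2 sit at the same height, those of Mx2 part on replicates 1 and 5, and those of Rsad2 run from -3.18 to -0.065.

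Rsad2, or viperin, is a radical enzyme that makes a nucleotide which stops viral polymerases. It was the member called lower: -1.58, -1.15, -0.96, -0.82 and -1.33 on the 5 arrays, a fitted -1.14 ± 0.15 (2.20-fold lower in the allograft samples, adjusted p = 0.0234, limma). This gene average rests on 4 probes that did not give a common value. The lowest probe, of the RefSeq transcript, read -4.08, -2.62, -2.42, -3.54 and -3.36, a fitted -3.18 ± 0.27 (adjusted p = 0.00596, limma on single probes). The other probe of that transcript read -2.36, -1.17, -0.69, -0.40 and -1.12, a fitted -1.09 ± 0.27 with an adjusted p of 0.117. Probes of expressed sequence tags gave -0.21 (adjusted p = 0.639) and -0.065 (adjusted p = 0.904), with both signs among the arrays.

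The gap of 3.12 between the highest and the lowest Rsad2 probe was wide for this array. Among 5294 genes with more than 1 tested probe, 3 had a wider gap (0.0567%) and the median gap was 0.31. Among the 379 genes with 4 tested probes, 0 had a wider gap, with a median of 0.48. The 8 spots that touch the lowest probe on the recovered layout had mean ratios from -0.23 to 0.39, so the low value was not shared by its surroundings on the slide. Without that probe the Rsad2 ratio was -0.46 with an adjusted p of 0.268, and with the median of the probes it was -0.68 with an adjusted p of 0.137, both in limma. With only the RefSeq probes it was -2.14 (adjusted p = 0.0133). Leaving out any single array also ended the call, with adjusted p-values from 0.0698 to 0.119 and ratios from -1.22 to -1.06.

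The named genes closest to the lowest Rsad2 probe were looked for over the 5 arrays, by Euclidean distance of the log2 ratios among 13313 genes, for this probe after its values were seen. They were Gp1bb, a subunit of the platelet receptor for von Willebrand factor, at a distance of 0.580, the platelet lectin receptor Clec1b at 0.632, the phospholipase Pla1a at 0.703, the platelet chemokine Pf4 at 0.921 and the growth factor Fgf17 at 1.04. Of the 7 platelet markers tested, 5 fell, with a list median of -2.23, and of 8 red cell markers 6 fell, with a median of -2.12. Per array, the platelet median was -3.24, -2.05, -1.74, -2.52 and -1.94. Distances to the lowest Rsad2 probe were uneven within both lists, from 0.580 for Gp1bb to 4.47 for Gp5 and 6.39 for Ppbp among platelet markers measured on all arrays. Among red cell markers they ran from 1.18 for Fech and 1.21 for Add2 to 5.17 for Slc4a1. The part of platelets and red cells in the probe's ratio was not tested. The remaining Rsad2 probes had higher ratios, and the other 9 effectors lay at distances from 6.28 to 10.4. This distance depends on the level of the ratios. The probe's fitted -3.18 lay below the lowest named gene, at -3.12, so genes with low ratios are near it and those above 0 far from it. The distances are thus no separate sign of a shared profile.

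**Figure D3:**
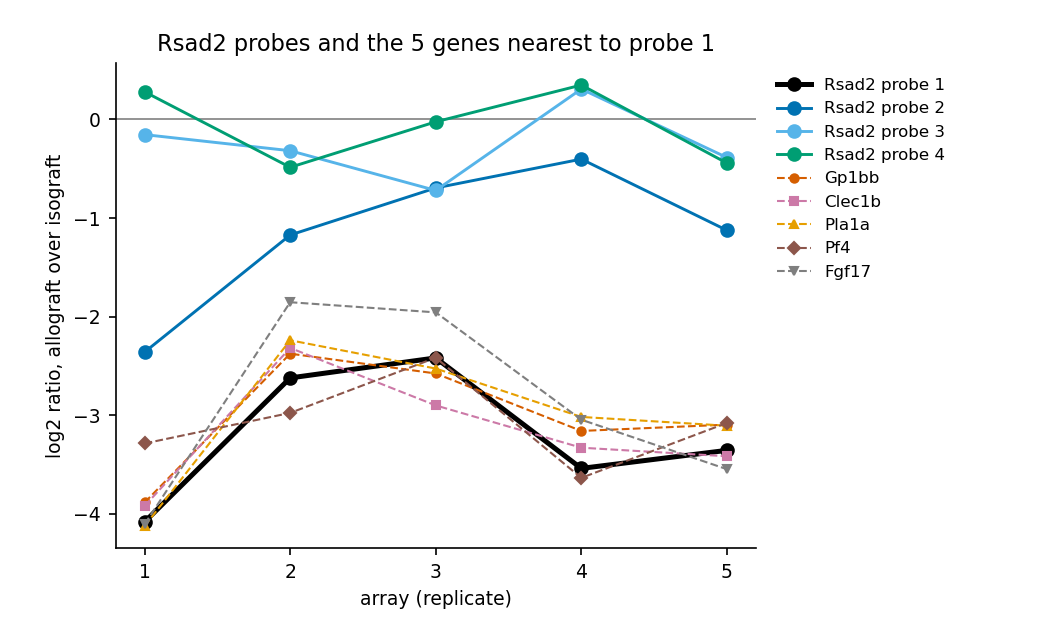
Log2 ratio of allograft over isograft (vertical axis) on replicates 1 to 5 (horizontal axis) for the 4 Rsad2 probes (thick lines) and the 5 genes nearest to the lowest probe (dashed lines), joined only to guide the eye. The lowest probe runs between -4.08 and -2.42 among Gp1bb, Clec1b, Pla1a, Pf4 and Fgf17, and the probes of expressed sequence tags stay near 0.

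The same distance was taken for the gene averages of Parp9, Isg15, Bst2 and Rsad2. Nearest to Parp9 were the class I gene RT1-T18 (0.237), the ubiquitin ligase subunit Fbxl5 (0.262) and the lysosomal protease Ctsz (0.272). Nearest to Isg15 were the mitochondrial protein Fam162a (0.551), Ctsz (0.590) and the glycolytic enzyme Tpi1 (0.596). Nearest to Bst2 were the granzyme Gzmc (0.697), the cation channel Trpm2 (0.893) and the inflammatory caspase Casp4 (0.928). For the gene average of Rsad2 they were the Mediator subunit Med24 (0.376), the sulfatase Arsj (0.445) and the olfactory receptor Or5ak4 (0.455). No other member was among the 3 nearest of these 4 genes.

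Across genes, which are not independent replicates, replicates 1 and 5 had the highest correlation, 0.644, and replicates 1 and 4 the lowest, -0.0102. A sign pattern noticed after the values were seen, below 0 on replicates 1 and 5 and above 0 on replicates 2 to 4, was shown by Mx2 and Ifit1 among the members. It was also shown by Oas1b, Isg20 and Ifi27l2b of 38 other interferon-stimulated genes and by the sensing genes Ifih1, Tlr3 and Myd88 of 10. Of all 13314 named genes, 569 (4.27%) had this pattern. None of the 7 interferon gamma GTPases and Ubd had it, and none could, since all of them lay above 0 on every array.

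Other interferon-stimulated genes, listed with earlier results known, lay mostly above 0. Of 52 listed, 39 were tested, 2 rose and 0 fell, against 1.07% and 0.712% of named genes. The ones that rose were Ifitm1, which blocks the entry of enveloped viruses, at 1.10 ± 0.16 (adjusted p = 0.0308), and Zbp1, a sensor of left-handed nucleic acid, at 0.81 ± 0.14 (adjusted p = 0.0475). The list median was 0.23, and 34 of 39 had a fitted ratio above 0, against 7040 of 14329 named genes. The next highest was the RNA helicase Dhx58 at 0.73 (adjusted p = 0.0849), and the lowest were Lgals9 at -0.50, Isg20 at -0.18 and Oasl at -0.18. Without replicate 2, Ifitm1 kept its call (adjusted p = 0.0436), and without any other array neither gene passed.

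**Figure D4:**
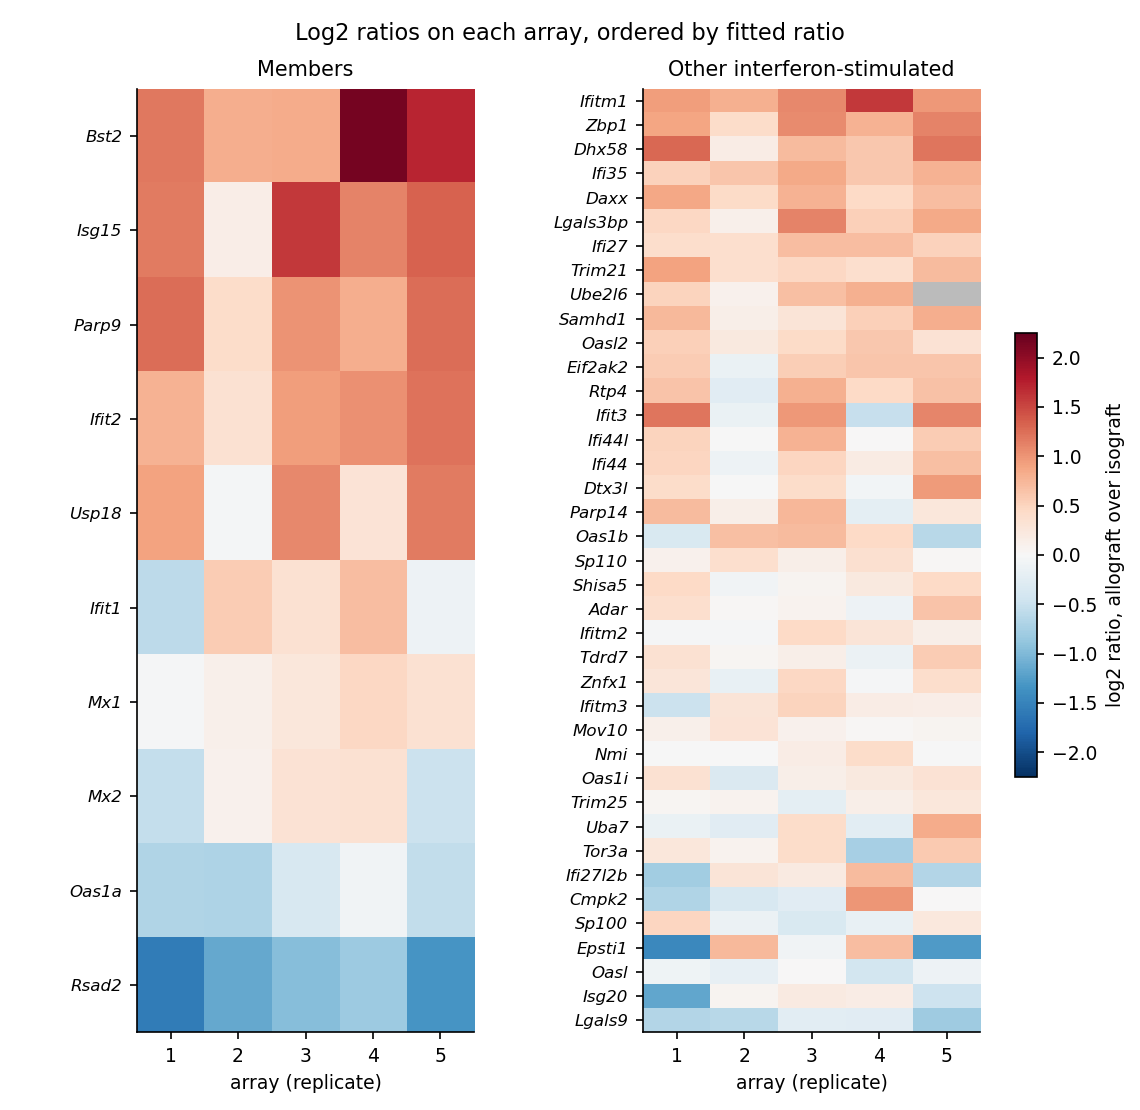
Log2 ratio of allograft over isograft (colour) on replicates 1 to 5 (columns) for the 10 effectors (left) and the 39 other interferon-stimulated genes (right), each ordered by fitted ratio, with a missing value in grey. Most cells are pale red, replicate 2 is the palest column in the upper part, and a few genes such as Mx2, Oas1b and Isg20 are blue on replicates 1 and 5.

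Upstream of the effectors, the ligands of the type I family were not called. Ifnb1 was at 0.18 (adjusted p = 0.639), Ifna5 at -0.20, Ifnk at -0.18, and Ifna4 at -0.29 on 4 arrays. Ifng, interferon gamma, rose: 2.00, 1.28, 2.75, 1.20 and 2.09 on the 5 arrays, a fitted 1.76 ± 0.16 (adjusted p = 0.00756, limma). It was 1 of 5 ligands tested of 12 listed. Ifng lost its call with the arrays scaled to a common spread and without replicate 4, where the adjusted p was 0.0506.

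Of 13 sensing genes 10 were tested and 0 passed, with 3 at an unadjusted p under 0.05 and a list median of 0.05. The highest were the kinases Ikbke at 1.00 ± 0.18 (adjusted p = 0.0574) and Tbk1 at 0.47, with the RNA receptor Tlr3 at 0.29. The lowest were the DNA receptor Tlr9 at -0.44, below 0 on every array, the adaptor Mavs at -0.08 and the factor Irf3 at -0.03. Ikbke passed in 3 alternatives: without the dye term, with quantile normalization and with a common spread.

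Among 11 tested genes of the receptors and their signalling, of 15 listed, Irf1 rose. It read 1.95, 1.15, 1.78, 1.35 and 1.97, a fitted 1.57 ± 0.13 (adjusted p = 0.00659, limma), and it passed with each single array left out. Stat2 was at 0.69 (adjusted p = 0.0800) and Jak2 at 0.69 (adjusted p = 0.0809), both above 0 on every array. Socs3, a feedback inhibitor, was at -0.60 on 4 arrays, and the interferon gamma receptor chains Ifngr1 and Ifngr2 were at -0.32 and -0.29. Of the other parts of the type I pathway, looked at for their role after the values were seen, the kinase Jak1 was at 0.30 (above 0 on 4 of 5 arrays), the receptor chain Ifnar1 at 0.09, Irf9 at 0.03 and Irf7, which drives the making of interferon alpha, at 0.03. Tyk2 and Ifnar2 were not among the genes tested.

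**Figure D5:**
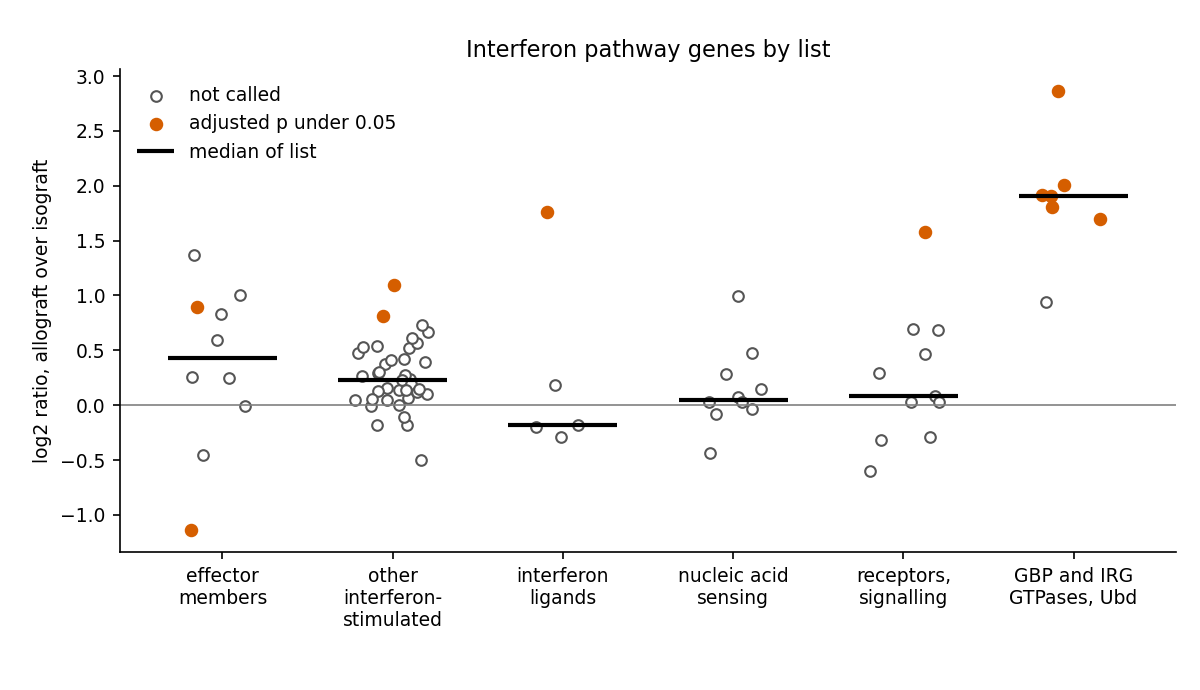
Fitted log2 ratio of allograft over isograft (vertical axis) for each tested gene of 6 lists of the interferon pathway, with filled points for an adjusted p under 0.05 and bars for list medians. The effectors have a median of 0.43 and the GTPases with Ubd one of 1.91, with medians between -0.18 and 0.23 for the other lists.

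Genes induced mainly by interferon gamma had a higher median ratio than the effectors, with overlap between the lists. Of 7 tested GTPases of the guanylate-binding and immunity-related families with Ubd, out of 13 listed, 6 rose: Ubd, a ubiquitin-like protein, at 2.86, Gbp2 at 2.01, Gbp4 at 1.92, Gbp5 at 1.91, Irgm at 1.81 and Ifi47 at 1.70. Igtp, at 0.94 (adjusted p = 0.0717), did not pass, and its ratio was below those of Bst2 and Isg15. With the arrays scaled to a common spread 4 passed, without Gbp5 and Ifi47, and Gbp5 also lost its call after quantile normalization and in 4 of 5 fits with an array left out (adjusted p up to 0.0719). The list median was 2.62, 1.45, 2.11, 1.69 and 2.06 on replicates 1 to 5, above the effectors' median on each array. On replicates 1, 2, 3 and 5, 0 of the 10 effectors reached the median of that list, and on replicate 4 Bst2 did. Above the lowest gene of that list lay 5, 0, 1, 3 and 6 of the 10 effectors on replicates 1 to 5. The members of both lists were picked with these ratios known, so this difference is a description and was not tested.

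Markers of the cells that make or hold interferon responses were read beside these ratios. Of 3 tested markers of plasmacytoid dendritic cells, a major source of interferon alpha, 0 passed (Pacsin1 0.32, Tcf4 -0.20, Ccr9 -0.23). Of 8 markers of monocytes and macrophages, 1 rose, Cd14 at 1.42 ± 0.17 (adjusted p = 0.0173), with a list median of 0.27. Per array, the monocyte median was 0.56, 0.09, 0.29, 0.06 and 0.45. Of 7 T cell markers, 1 rose, Cd3e, with a list median of 0.16. The 3 tested B cell markers lay between -1.11 and -0.57 and did not pass. Granulocyte, endothelial and kidney markers had medians of -0.20, 0.01 and -0.12 with 0 called in each list. The part of cell makeup in the members' ratios was not tested.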

How the data were processed

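Leukocyte RNA of renal allografts and isografts was compared on 5 dual-colour arrays. The authors deposited a log ratio per spot, used here as log2. The sources used here do not give the log base, background correction, normalization or scanner. Spot intensities were not used here, and precision is limited by having 5 arrays.

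The table's rows were put in register with the probe annotation as a layout of 103 rows by 430 columns. A set of 407 spots whose ratio followed the dye (mean above 3), 0 of them on named probes, was left out after the data were seen. The platform annotation named 1 gene for 23535 probes and several for 48. A RefSeq gene table of GRCr8 matched 23488 of these, and 1 symbol changed. The members had 17 probes.

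Probes with values on at least 4 arrays and in both dye orientations were averaged per symbol. The model, in limma 3.58.1 under R 4.3.3 (lmFit, eBayes), had a graft and a dye term, a two-sided moderated test and Benjamini-Hochberg adjustment over 33646 features. The fit was tested on simulated data. Promoters come from RefSeq's GRCr8 windows. The members and gene lists were chosen with earlier results of these data known. Named genes were all members, list genes past an adjusted p of 0.05 with the 3 highest and 3 lowest of each list, and the 3 genes nearest to Rsad2, Isg15, Bst2 and Parp9. Alternatives covered the dye term, scaling, weights, variance prior, missing values, probe averaging, orientation and each array left out.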

Additional observations from a re-analysis of the deposited data

How the results depend on the processing

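Each array already sets an allograft against an isograft sample, so every fit compared them within arrays, and no further pairing was added. Over all features, 455 were called, between 313 and 639 in the other alternatives but the unmoderated test, and between 64 and 149 with an array left out. The unmoderated limma test called 0 features (4501 at an unadjusted p under 0.05), 0 members (7 unadjusted) and 0 genes of each pathway list (from 1 to 16 unadjusted). With arrays scaled to a common spread, the share of calls that were higher was 31.3%, against 56.3%. It was 87.5% with replicates 2 and 4 turned (407 higher and 58 lower). That fit also kept the 407 dye-following spots, whose turned ratios average above 3 by their definition. How many of its higher calls were these spots was not counted. Of the members, 2 were called, 4 without the dye term and 4 after quantile normalization, which added Bst2 in both, Ifit2 in the former and Isg15 in the latter. The count was 1 with the median of probes and 1 with a single probe kept per gene. It was 1 without the lowest Rsad2 probe (chosen after seeing the data), and from 0 to 1 with an array left out. The single probe was the one with most arrays, then the lowest number, for Rsad2 a tag probe at -0.21. In limma on all single probes, the lowest Rsad2 probe (adjusted p = 0.00596), 1 Bst2 probe (0.0431) and the Parp9 probe (0.0400) passed. Of other interferon-stimulated genes, 2 were called, but 0 with a common spread, 1 with array weights and 1 with a robust variance prior. The count was also 1 with a single probe kept per gene, 1 with the dye-following spots kept, and from 0 to 1 with an array left out. The ligand call was 0 with a common spread and from 0 to 1 with an array left out. The sensing count was 1 without the dye term, 1 after quantile normalization and 1 with a common spread. With replicates 2 and 4 turned, as if the ratios were red over green, 0 members and 0 genes of the stimulated, ligand, receptor and GTPase lists were called. Turning exchanges the graft and the dye term, so a member's turned ratio is by construction the dye term of the main fit. It was -0.046 for Mx1, -0.38 for Ifit1 and -0.12 for Bst2. Mx2, at -0.0039, changed sign after quantile normalization (0.061), with a common spread (0.053) and with RefSeq probes alone (0.39), and ran from -0.14 to 0.071 with an array left out. Some alternatives hold fewer arrays or probes by construction, and the turned fit exchanges terms. Other causes of these changes were not tested.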
